A study of Mus musculus with 17 samples.

Results

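The genes described here are those of the receptors for GABA, glycine, glutamate and serotonin. They were taken as all genes whose single symbol in the array annotation is Gabr with a letter, Glra, Gria, Grik, Grm or Htr with a digit, Glrb, or Grin with a digit up to 3. Where a gene had several probe sets, the one with the highest mean over the 17 samples was used. There were 57 such genes among 19752 named genes, and 22 of the 57 were bright enough to be tested.

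RNA was measured in medullary thymic epithelial cells (MECs), the stromal cells of the thymic medulla that display proteins of other tissues to developing T cells, on whole-transcript gene arrays with 1 array per sample. The cells were sorted as CD45- Ly51- MHCIIhi from C57BL/6 mice of mixed sex. Every mouse, controls included, carried Adig, a transgene in which Aire sequences drive an Igrp-GFP reporter, so that GFP stands for the activity of the transgene and not for Aire protein. There were 6 groups, with WT and KO giving the state of Aire. At each age GFP+ cells came from WT (3 samples) and from KO mice (3 samples), and GFP- cells from WT mice, with 3 samples in adults and 2 in perinates. Adults were 5 weeks old, and perinates are labelled as 3 days old in the sample labels and 0 to 3 days in the series description. The labels do not say whether samples of a group came from separate mice or pools, so the p-values reflect only how these samples vary, and that variation may be technical.

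Most of these genes encode subunits of ion channels that open when a transmitter binds. GABA-A and glycine receptors pass chloride and quieten neurons, while the AMPA, kainate and NMDA receptors for glutamate pass cations and excite them; the metabotropic glutamate receptors and all serotonin receptors but those of type 3 act through G proteins. In the thymus such transcripts belong to the tissue-restricted genes of MECs, many of which depend on Aire, a nuclear regulator whose loss causes autoimmunity.

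The arrays had medians of 144.5 to 157.1, and their 40th percentiles lay at 96.2 to 112.1; a gene was tested when 2 or more arrays read it above their own 40th percentile, as held for 13842 genes. Replicates of a group correlated at 0.97 to 0.995 over those genes. All 10 markers of medullary thymic epithelium exceeded the 40th percentile on every array. Aire itself read 4072 to 6000 on the KO arrays and 4094 to 6196 on the WT GFP+ arrays, so its probe set does not check the genotype, against 270 to 930.1 on the GFP- arrays. The Y-linked transcript Uty read 16.1 to 19.2 on perinate KO arrays 2 and 3 and 168.9 to 366.2 on the other 15 arrays, so results that rest on those 2 arrays are given without them too.

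In these cells most receptor genes gave little signal: 35 of the 57 exceeded the 40th percentile on no array, with intensities of 13.6 to 108.1, and 5 exceeded it on all 17. The share that was tested differed between families. It was 2 of 5 alpha subunits of GABA-A receptors, 0 of 2 beta, 1 of 2 gamma and 5 of 7 other GABA-A and rho subunits. Among the rest it was 1 of 5 glycine receptor genes, 2 of 4 AMPA, 3 of 5 kainate, 2 of 6 NMDA, 2 of 7 metabotropic glutamate and 4 of 14 serotonin receptor genes. On all arrays of a group, 12 members exceeded the percentile in WT GFP+ cells of either age, 8 in GFP- and 11 in KO cells of adults, and 9 in GFP- and 10 in KO cells of perinates. The members above it on all 17 arrays were Gria3 (265 to 1714), Htr7 (217 to 1037), Htr1b (138 to 685), Grik5 (133 to 227) and Grm2 (99.9 to 183). These intensities are not compared between genes, since each probe set has its own sensitivity, and in sorted cells fewer cells with a transcript and less transcript per cell cannot be told apart. A member that was bright in only 1 group had to differ to be tested, and Glrb and Htr3a each exceeded the percentile in 1 group only. The same selection bears on members bright in 1 genotype or sort only. Gabra4 exceeded it only on the 6 KO arrays, Gabra5 only on the 6 WT GFP+ arrays and Gabre only on 5 GFP- arrays. Gabrr1 did so on 2 WT GFP+ arrays and Gria1 on 2 KO arrays. Shares over the tested members carry this selection, so counts of called members are also given over all 57 without the filter.

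Of the 57 members, 44 had an entry among the RefSeq promoters of GRCm38.p6, with 53 start sites among 32851. The 200 bases upstream of the start are shown for Gabrp and Gabra5, the members with the largest falls in KO cells, for Gabra4, the member with the largest rise, and for Glrb, the member with the largest difference by age; capitals mark CpG dinucleotides, and each runs 5′ to 3′ on the gene's strand.
Gabrp (chr11:33578958-33579157, minus strand): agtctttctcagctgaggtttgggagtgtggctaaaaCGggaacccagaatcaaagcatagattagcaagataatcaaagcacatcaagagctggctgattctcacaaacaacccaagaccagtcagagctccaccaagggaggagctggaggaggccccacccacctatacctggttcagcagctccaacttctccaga
Gabra5 (chr7:57510060-57510259, minus strand): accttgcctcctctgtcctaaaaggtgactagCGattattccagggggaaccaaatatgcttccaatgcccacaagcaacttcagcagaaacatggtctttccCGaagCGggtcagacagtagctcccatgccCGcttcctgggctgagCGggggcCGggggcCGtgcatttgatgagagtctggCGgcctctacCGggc
Gabra4 (chr5:71658309-71658508, minus strand): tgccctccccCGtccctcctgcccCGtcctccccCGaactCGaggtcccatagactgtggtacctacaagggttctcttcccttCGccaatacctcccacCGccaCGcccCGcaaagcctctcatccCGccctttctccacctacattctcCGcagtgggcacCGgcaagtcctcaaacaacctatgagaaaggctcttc
Glrb (chr3:80913661-80913860, minus strand): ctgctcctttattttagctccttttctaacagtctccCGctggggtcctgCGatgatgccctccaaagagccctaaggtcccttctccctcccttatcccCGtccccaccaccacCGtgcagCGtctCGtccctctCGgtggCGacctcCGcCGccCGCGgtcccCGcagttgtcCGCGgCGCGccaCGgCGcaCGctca

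The 4 differ in CpG: there is 1 in the stretch of Gabrp, 9 in that of Gabra5, 11 in that of Gabra4 and 20 in that of Glrb. Over the 250 bases upstream of each start, member windows held a median of 8 CpG and all windows a median of 6. On either strand of those 250 bases, TATAAA was found in 9.43% of member windows against 12.4% of all, GGGCGG in 45.3% against 32.7%, CAGCTG in 7.55% against 13.0%, and CCAAT in 39.6% against 33.8%. Each motif was searched on its own, so matches of different motifs may overlap, and a match is not a bound site. Gabrp holds CAGCTG, Gabra5 holds CCAAT, Gabra4 holds GGGCGG and CCAAT, and Glrb holds GGGCGG.

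Aire knockout was compared with WT in GFP+ cells, which asks which receptor genes depend on Aire. At both ages Gabra5 and Gabrp, subunits of GABA-A receptors, were far lower in KO cells, by 6.43-fold and 7.36-fold in adults. The serotonin channel gene Htr3a was lower by 1.73-fold in adults, with all its adult values under the 40th percentile. Gabra4, another GABA-A subunit, was 3.44-fold higher in adult KO cells and also rose in perinates. Values after ± are standard errors of the fit. In adults, 7 of the 22 tested members fell in KO cells and 3 rose; 19.9% of all tested genes were called in this comparison, at an adjusted p under 0.05. In perinates 10 fell and 3 rose, where 26.5% of all tested genes were called. Without the filter, 11 of the 57 fell and 4 rose in adults (18.6% of 19752 genes called), and 16 fell and 5 rose in perinates (24.4% called). The median log2 difference of the tested members was -0.17 in adults and -0.29 in perinates, against 0.06 and 0.09 for all tested genes; over all 57 members it was -0.13 and -0.20, against 0.05 and 0.01 for all genes. By family, the adult falls were 1 alpha, 1 gamma, 2 other GABA-A or rho, 1 metabotropic glutamate and 2 serotonin receptor genes, and the rises 1 alpha, 1 NMDA and 1 serotonin receptor gene. In perinates the falls were 1 alpha, 1 gamma, 4 other GABA-A or rho, 1 kainate, 2 metabotropic and 1 serotonin receptor gene, and the rises 1 alpha and 2 NMDA genes. With every array centred on its median, 4 members rose and 7 fell in adults and 4 rose and 9 fell in perinates, while the share of higher genes among all called became 61.2% in adults (45.6% as deposited) and 66.7% in perinates (50.8%).

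The largest falls were in 2 subunits of GABA-A receptors. Gabra5, the alpha5 subunit found in receptors outside synapses in the hippocampus, read 235, 286 and 219 on the adult WT GFP+ arrays and 39.9, 38.2 and 36.3 on the adult KO arrays, a 6.43-fold fall with log2 difference -2.68 ± 0.12, adjusted p = 4.86e-11. In perinates it read 160.3, 169 and 163 in WT and 36.1, 38.8 and 39.7 in KO cells, 4.30-fold lower with log2 difference -2.10 ± 0.12, adjusted p = 1.44e-09. With KO arrays raised to their 40th percentiles the fall was at least 2.40-fold in adults and 1.67-fold in perinates. All 6 WT GFP+ arrays lay above all 6 KO arrays, and every KO value lay below the 40th percentile, near the values of 38.3 to 63.9 in GFP- cells. Gabrp, the pi subunit, which is found mostly outside the brain, read 869, 976 and 988 in adult WT GFP+ and 159, 146 and 91.1 in adult KO cells, 7.36-fold lower with log2 difference -2.88 ± 0.28, adjusted p = 5.58e-07. In perinates the WT arrays read 414, 801 and 676 and the KO arrays 109, 60.2 and 62.4, 8.19-fold lower with log2 difference -3.03 ± 0.28, adjusted p = 4.37e-07. Its groups did not overlap at either age, and KO array 1 was the highest of the 3 in perinates.

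Other GABA-A subunits that fell did so by less. Gabrr1, a rho subunit of the retinal type of GABA receptor, read 76.2, 116 and 77.7 in adult WT GFP+ and 61.1, 63.0 and 54.5 in adult KO cells, log2 difference -0.57 ± 0.15, adjusted p = 0.0124. In perinates it read 135, 95.5 and 109.6 in WT and 47.2, 44.7 and 42.5 in KO, log2 difference -1.32 ± 0.15, adjusted p = 5.41e-06. The adult groups did not overlap, but the adult call rested on single arrays: it was -0.37, adjusted p = 0.0761 without adult WT GFP+ array 7, and -0.51, adjusted p = 0.0505 without adult KO array 3. Gabrg3, a gamma subunit, fell at both ages, with 222 to 292 in WT and 156 to 170.3 in KO adults (log2 difference -0.65 ± 0.13, adjusted p = 0.00165) and 154 to 165 in WT and 82.7 to 103 in KO perinates (log2 difference -0.73 ± 0.13, adjusted p = 0.00055). Gabrd, the delta subunit of receptors outside synapses, fell in perinates, with 103 to 121 in WT and 70.1 to 79.3 in KO cells (log2 difference -0.59 ± 0.11, adjusted p = 0.000588, or -0.38 after quantile normalization); its adult value was -0.12 ± 0.11, adjusted p = 0.474.

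Gabra4, the alpha4 subunit that pairs with delta in thalamus and dentate gyrus, went the other way. It read 55.0, 47.9 and 44.6 in adult WT GFP+ and 148, 163 and 199 in adult KO cells, a 3.44-fold rise with log2 difference 1.78 ± 0.14, adjusted p = 4.73e-08. In perinates it rose from 68.1, 82.5 and 70.4 to 178, 187 and 213, 2.61-fold with log2 difference 1.39 ± 0.14, adjusted p = 1.54e-06. With the WT arrays raised to their 40th percentiles the rise was at least 1.54-fold in adults and 1.73-fold in perinates. Every KO array exceeded every WT array of either sort and age, and the 6 KO arrays were the only ones on which Gabra4 passed the 40th percentile. The gene models of Gabra4 and Gabrb1, which lie head to head on opposite strands, share 388 bases in the RefSeq annotation (the upstream stretch printed for Gabra4 lies inside the Gabrb1 model); whether a probe lies in the shared bases was not examined. With 50 added to each intensity before the log, the adult differences of Gabra4 and Gabra5 shrank to 1.14 and -1.74, those of other dim members shrank too, and the KO calls named here were kept.

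Among serotonin receptors, Htr3a, the subunit of the only serotonin-gated channel, fell at both ages. It read 73.5, 66.9 and 85.6 in adult WT GFP+ and 40.7, 48.2 and 41.2 in adult KO cells, log2 difference -0.79 ± 0.17, adjusted p = 0.00339. The perinate values were 133, 95.3 and 120.3 in WT and 39.6, 39.9 and 41.5 in KO, 2.85-fold lower with log2 difference -1.51 ± 0.17, adjusted p = 6.59e-06. Neither pair of groups overlapped, but all adult values lay under the 40th percentile. Htr3a exceeded it on 2 arrays only, both perinate WT GFP+. Htr1b, a receptor that inhibits transmitter release from nerve endings, read 477, 415 and 557 in adult WT GFP+ and 262, 212 and 225 in adult KO cells, 2.07-fold lower with log2 difference -1.05 ± 0.16, adjusted p = 0.000129; in perinates it read 175, 231 and 196 in WT and 138, 166 and 174 in KO, log2 difference -0.33 ± 0.16, adjusted p = 0.139, which did not pass. Htr7, a receptor that raises cyclic AMP, rose in adult KO cells, with 559 to 641 in WT and 894 to 1037 in KO cells (log2 difference 0.67 ± 0.12, adjusted p = 0.000625); the perinate value of 0.32 ± 0.12 missed the threshold at adjusted p = 0.0612.

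Of the glutamate receptors, the metabotropic Grm4, which lowers transmitter release, fell with 157 to 186 in WT and 112 to 131 in KO adults (log2 difference -0.50 ± 0.12, adjusted p = 0.00585) and 177 to 198 in WT and 94.9 to 123 in KO perinates (log2 difference -0.73 ± 0.12, adjusted p = 0.000216). Grm2, a receptor of the same action, read 183, 171 and 175 in perinate WT GFP+ and 103, 112 and 99.9 in perinate KO cells, log2 difference -0.75 ± 0.10, adjusted p = 2.09e-05; the adult value was -0.23 ± 0.10, adjusted p = 0.109. Both WT groups of Grm4 lay above their KO groups, as did the perinate groups of Grm2. The NMDA subunit gene Grin2d rose from 156, 204 and 146 to 356, 241 and 286 in adults (log2 difference 0.80 ± 0.17, adjusted p = 0.00288) and read 179, 154 and 187 in WT and 208, 288 and 304 in KO in perinates (log2 difference 0.61 ± 0.17, adjusted p = 0.016). The perinate call was lost without KO array 2 (0.55, adjusted p = 0.0695), KO array 3 (0.51, adjusted p = 0.0795), both (0.27, adjusted p = 0.52) or WT GFP+ array 6 (0.53, adjusted p = 0.0557). Grin2c also passed in perinates at 0.46, but its groups overlapped (323 to 391 in WT and 372 to 585 in KO); it was the 1 called member of 13 with overlapping groups, where 5.21% of all called genes overlapped. Without KO arrays 2 and 3 it read 0.06 ± 0.19, adjusted p = 0.895. No AMPA receptor gene was called at either age, and of the kainate receptor genes only Grik3 passed, in perinates (log2 difference -0.43 ± 0.14, adjusted p = 0.038).

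**Figure D1:**
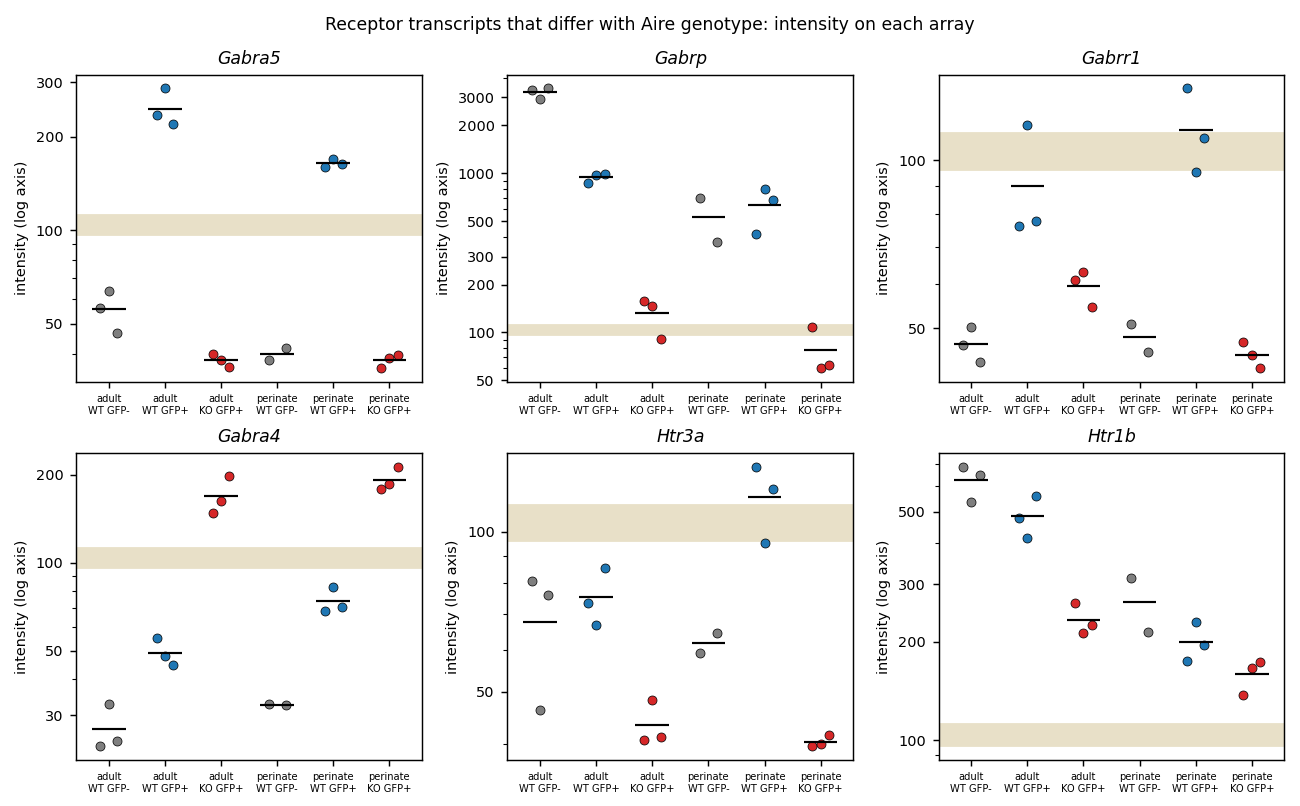
Intensity on each array (log axis) of 6 members with differences by Aire genotype; points are arrays, bars are group means, and the shaded band is the range of the arrays' 40th percentiles (96.2 to 112.1). Gabra5 and Gabrp lie high in the WT GFP+ groups and low in both KO groups, while Gabra4 lies highest in the KO groups.

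The adult and perinate comparisons use different arrays. Of the 22 tested members, 6 fell and 2 rose at both ages, 0 were called in opposite directions, and 20 had the same sign. As shares these are 27.3%, 9.09%, 0% and 90.9% of the tested members, and over all tested genes they were 8.04%, 3.49%, 0.13% and 68.4%. The shares over the 22 carry the filter's selection. Gabra5, Gabrr1 and Htr3a exceeded the 40th percentile only on WT GFP+ arrays, and Gabra4 only on KO arrays. Over all 57 members 45 had the same sign. Without the filter, no share of same signs over all genes and no count called at both ages was computed. The members called at both ages were Gabrp, Gabra5, Gabrg3, Gabrr1, Htr3a and Grm4, which fell, and Gabra4 and Grin2d, which rose. In the test of the difference between the ages' KO effects, 0 of 22 members were called by limma, where 1.21% of all tested genes were. Without the filter 0 of 57 were called, where 1.26% of all genes were. An unadjusted p under 0.05 was found for 7 of 22, but no share of all tested genes was computed for it. The lowest adjusted p was 0.0678 for Grm2 (difference of differences -0.52 ± 0.14), followed by Gabrr1 (-0.75 ± 0.21, adjusted p = 0.0814) and Gabra5 (0.58 ± 0.17, adjusted p = 0.0891). With array weights 4 members were called (Gabra5, Gabrd, Grm2 and Htr1b, where 5.84% of all genes were), and without adult WT GFP+ array 7, 1 was (Gabrr1). The perinate comparison was also run with KO array 1 alone, leaving out arrays 2 and 3. The log2 differences were then -2.48 for Gabrp, -2.18 for Gabra5, -1.54 for Htr3a, -1.25 for Gabrr1 and 1.28 for Gabra4. Calls from that fit assume that the lone array varies like the other groups.

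**Figure D2:**
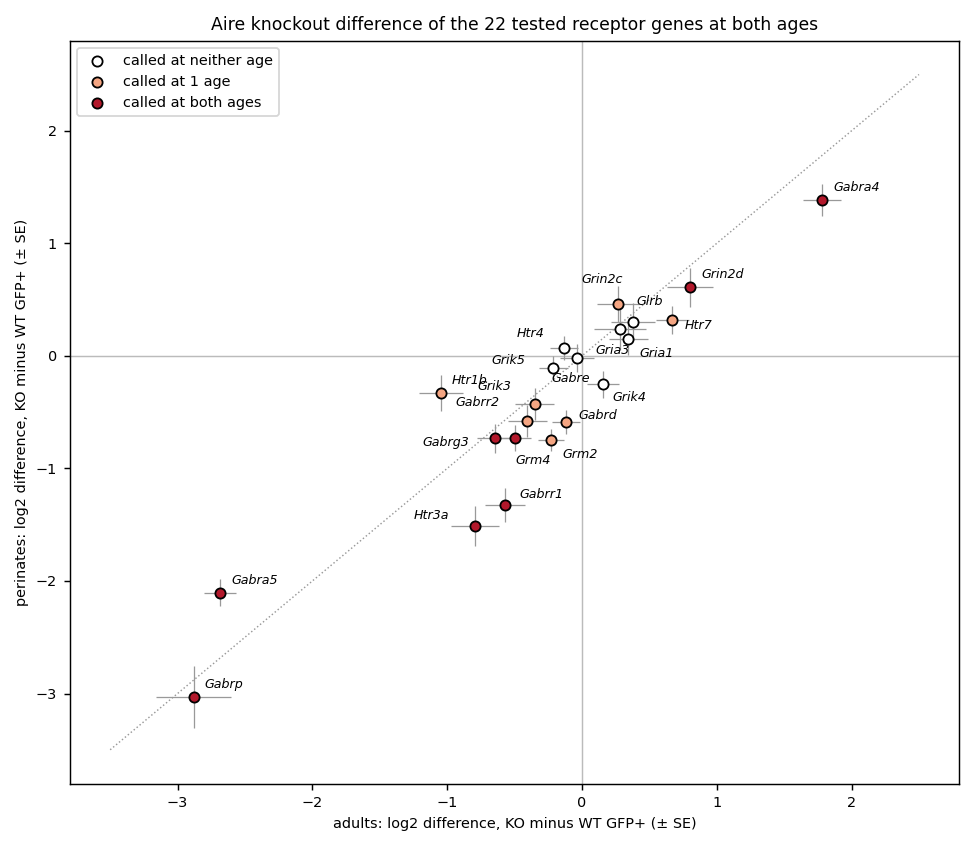
Log2 difference, KO minus WT GFP+, of the 22 tested members in adults (horizontal) and perinates (vertical), with SE bars; filled points are members called at 1 or both ages and the dotted line marks equal differences. The 6 members called lower at both ages lie at the lower left and the 2 called higher at both ages at the upper right.

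Markers of other cell types were read beside these differences. The summed intensity of 10 neuron markers was 1428 to 1822 in adult WT GFP+ and 1240 to 1547 in adult KO cells, and 1965 to 2400 and 2364 to 2609 in the perinate groups; 6 of 10 and 4 of 10 markers exceeded the 40th percentile on all arrays in adults, and 6 of 10 and 5 of 10 in perinates. Of the 7 neuron markers tested, 2 fell and 0 rose in adult KO cells, and 3 fell and 1 rose in perinate KO cells. One that fell at both ages, Rbfox3, a nuclear protein of neurons, read 125 to 157 in adult WT GFP+ and 80.3 to 90.7 in adult KO cells, 131 to 168 in WT and 58.8 to 71.4 in KO in perinates. The 5 fibroblast markers summed to 2024 to 2290 and 3803 to 4167 in adults and 3625 to 4598 and 4720 to 4947 in perinates. Above the percentile were 3 of 5 and 3 of 5 in adults and 3 of 5 and 4 of 5 in perinates. The 5 went in both directions: 2 rose and 1 fell in adult KO cells, and 2 rose and 2 fell in perinate KO cells. The 7 measured glia markers summed to 929 to 982 and 897 to 984 in adults and 969 to 1004 and 822 to 863 in perinates. On all arrays of the group, 2 of 7 and 2 of 7 exceeded the 40th percentile in adults and 2 of 7 and 1 of 7 in perinates. Of the 3 glia markers tested, 1 rose and 0 fell in adult KO cells, and 0 rose and 1 fell in perinate KO cells. Gfap lay under the percentile on every array (46.1 to 66.6). The 6 tuft cell markers summed to 854 to 1040 in WT and 638 to 1072 in KO adults and to 760 to 925 and 659 to 711 in perinates. The part of these cell types in the receptor differences was not tested.

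Several members lie side by side on a chromosome, and neighbours were set beside the called genes, with values from the fit without the filter for those that were too dim to test. On chromosome 5 the measured genes run Gabrg1, Gabra2, Cox7b2, Gabra4 and Gabrb1, and the KO difference in adults was 0.32 ± 0.10, -0.10 ± 0.11, 0.09 ± 0.09, 1.78 ± 0.14 and 0.27 ± 0.10. In perinates those of Gabra2 and Gabrb1, on either side of Gabra4, were -0.03 and 0.37. The genes that flank this run, Gnpda2 and Commd8, read 0.37 and 0.48 in adults, both called higher, and 0.01 and 0.14 in perinates. Gabra4 stood above each measured neighbour at both ages. As the member with the largest rise it had to exceed the members beside it. On chromosome 7, Gabrg3 (-0.65 in adults, -0.73 in perinates) and Gabra5 (-2.68 and -2.10) fell together. Of the genes that flank this run, Oca2 read -0.47 and -0.48, and Atp10a 0.20 and 0.27. On chromosome 4 the rho subunits Gabrr2 (-0.40 and -0.58) and Gabrr1 both had negative differences, Gabrr2 passing in perinates only (adjusted p = 0.00736; 0.0574 in adults). On the X chromosome Gabrq, the theta subunit, was lower at both ages without the filter (log2 difference -0.83 ± 0.11, adjusted p = 4.24e-05 without the filter in adults, -0.64 in perinates), while Gabre and Gabra3 in the same run had -0.04 and -0.22 in adults. On chromosome 11 Glra1, a channel-forming glycine receptor subunit, read 40.1 to 40.7 in adult WT GFP+ and 24.0 to 26.1 in adult KO cells, all under the 40th percentile (log2 difference -0.70 ± 0.10, adjusted p = 8.27e-05 without the filter). Its neighbour Nmur2, no receptor of this set, fell by 2.81 in adults and 1.64 in perinates on the log2 scale, and Gria1 beyond it read 0.34 and 0.15. Next to Htr3a on chromosome 9, Htr3b had 0.02 in adults and -0.27 in perinates. Without the filter Gabrg1 was called higher at both ages and Gabrb1 in perinates, and Htr3b was called lower in perinates. The other dim members so called were lower: Gabrb2 and Htr2a (-0.48) in adults, and Htr1d (-0.66), Htr1a (-0.36) and Grm5 (-0.34) in perinates. Gabrb2 was the 1 member with several probe sets; its 3 gave adult KO differences of -0.78, -1.0 and -0.54 and perinate ones of -0.21, -0.60 and -0.24, the same direction each time.

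**Figure D3:**
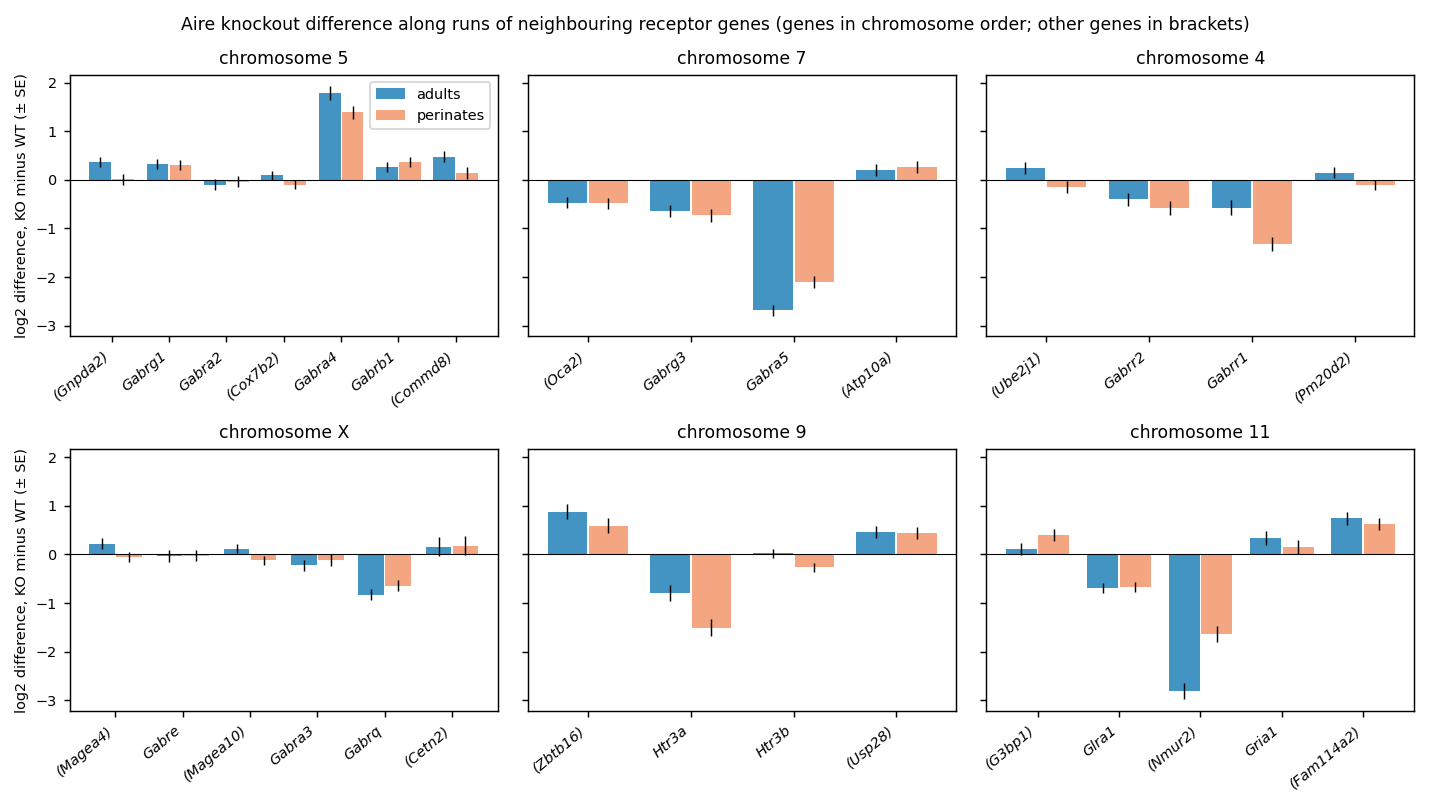
KO minus WT GFP+ log2 difference (bars, with SE) of measured genes in chromosome order around 6 runs of neighbouring members, adults and perinates side by side, from the fit without the filter; genes in brackets are not members. The large rise of Gabra4 and the large fall of Gabra5 stand beside smaller differences of the genes next to them, and Nmur2 falls between Glra1 and Gria1.

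Genes that make, move or break down the same transmitters, or partner the receptors, were counted from a list of 56, of which 52 were measured and 39 tested. In adult KO cells 13 of the 39 fell and 1 rose, where 10.8% of all tested genes fell and 9.06% rose. In perinate KO cells 14 fell and 4 rose, where 13% fell and 13.5% rose. Among GABA and glycine genes 7 of 15 fell in adults and 8 in perinates, with 0 higher at either age. Gad1, which makes GABA, read 235, 288 and 214 in adult WT GFP+ and 133, 141 and 149.8 in adult KO cells (log2 difference -0.79 ± 0.12, adjusted p = 0.000101). The GABA transporter Slc6a13 read 216, 283 and 177 in WT and 63.1, 62.9 and 63.0 in KO (3.51-fold lower). Its KO values all lay under the 40th percentile. The glycine transporter Slc6a5 read 304, 427 and 382 in WT and 129, 108 and 118 in KO (3.11-fold lower). Both transporters and Gad1 fell in perinates too, by 2.17-fold, 1.78-fold and 1.54-fold, as did the GABA transporters Slc6a12 and Slc6a11 and the GABA-B receptor gene Gabbr2.

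For glutamate, 4 of 18 genes fell in adults with 0 higher, and 4 fell and 2 rose in perinates. The glutamate transporter Slc1a1 fell at both ages (-1.06 ± 0.16 and -1.16 ± 0.16), with all KO values under the 40th percentile. Shank2, a scaffold of excitatory synapses, and the vesicular transporter Slc17a8 fell at both ages too. Grid1, a delta receptor gene, fell in adults (-0.78 ± 0.24) and the transporter Slc1a2 in perinates (-0.81 ± 0.14), while Neto2, a partner of kainate receptors, rose in perinates (0.74 ± 0.16). Of 6 serotonin genes, 2 fell and 1 rose in adults. Slc18a2, the vesicular monoamine transporter, read 278, 275 and 212 in adult WT GFP+ and 66.4, 59.1 and 59.1 in adult KO cells (4.12-fold lower, adjusted p = 3.1e-09) and was 4.0-fold lower in perinates. All KO values of Slc18a2 lay under the 40th percentile. Maoa, the enzyme that breaks down serotonin, rose from 204, 178 and 202 to 604, 913 and 783 in adults (3.89-fold, adjusted p = 2.64e-06) and 2.48-fold in perinates. The other serotonin gene that fell at both ages was Slc18a1 (-1.03 ± 0.19 and -0.66 ± 0.19). Slc6a4, the serotonin transporter, passed in perinates (log2 difference 0.51 ± 0.18, adjusted p = 0.0464) with overlapping groups, at 319 to 643 in WT and 593 to 715 in KO cells. Without perinate KO arrays 2 and 3 some perinate calls were lost. Those of rises were Maoa (0.86, adjusted p = 0.0691), Neto2 (0.78, adjusted p = 0.065), Slc6a4 (0.33, adjusted p = 0.495) and Cacng8 (-0.05, adjusted p = 0.887). Those of falls were Slc18a1 (-0.82, adjusted p = 0.0841), Slc1a2 (-0.50, adjusted p = 0.108), Slc6a5 (-0.75, adjusted p = 0.0701), Slc6a11 (-0.75, adjusted p = 0.0817), Slc6a9 (-0.49, adjusted p = 0.182) and Abat (-0.48, adjusted p = 0.0665).

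**Figure D4:**
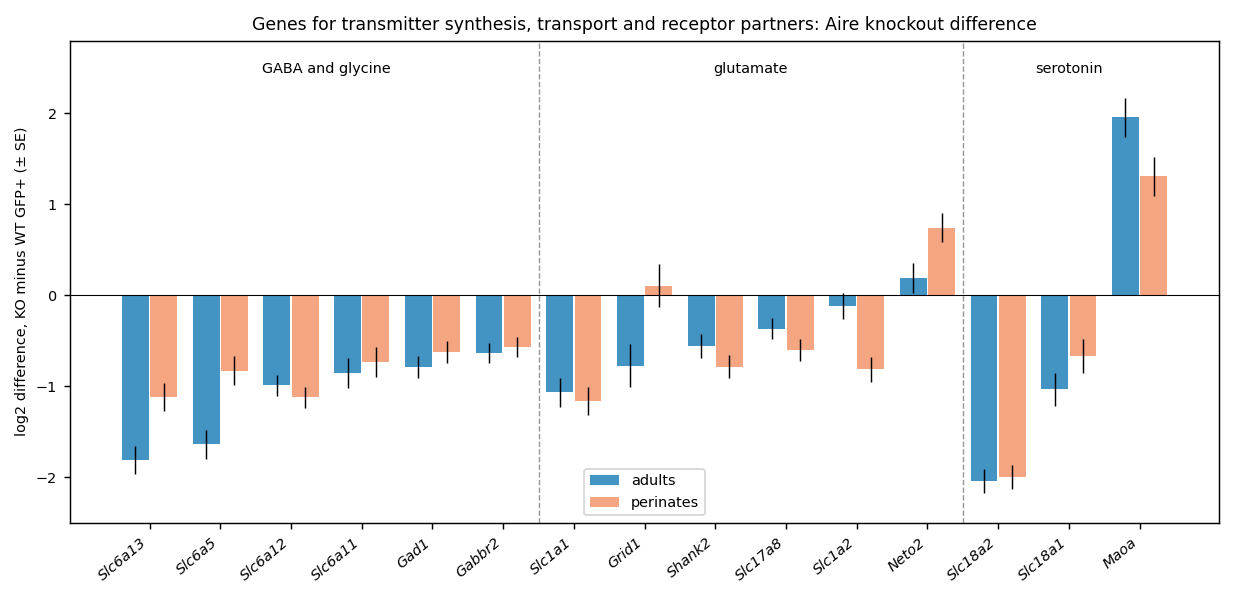
KO minus WT GFP+ log2 difference (bars, with SE) in adults and perinates of the transmitter genes called at an age with at least a 1.5-fold difference, grouped by transmitter. Most bars point down; Maoa points up at both ages, and Neto2 is called higher in perinates.

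GFP+ cells were compared with GFP- cells in WT mice of each age. The GABA-A subunit Gabra5, the AMPA subunit Gria3, the NMDA subunit Grin2c and the serotonin receptor Htr7 were more than 2-fold higher in GFP+ cells at both ages, and the GABA-A subunit Gabre was lower at both. The WT GFP+ arrays also serve as the reference of the KO comparisons, so a member's values in a KO and a GFP comparison of one age are not independent. In adults 12 of the 22 tested members were higher in GFP+ cells and 2 lower, where 44.9% of all tested genes were called; in perinates 16 were higher and 3 lower, where 43.5% were. Without the filter, 16 of 57 were higher and 2 lower in adults (36.6% of all genes called), and 21 were higher and 4 lower in perinates (34.1% called). The median log2 difference of tested members was 0.49 in adults and 0.71 in perinates, against 0.02 and 0.000343 for all tested genes. Of the tested members, 12 were higher at both ages (54.5%, against 14.3% of all tested genes). Only Gabre was lower at both (4.55%, against 10.5%). Both shares carry the filter's selection, as Gabra5 and Gabrr1 exceeded the 40th percentile only on WT GFP+ arrays and Gabre only on GFP- arrays. No count called at both ages was computed without the filter. By family, both tested alpha subunits, the gamma subunit, both AMPA and both NMDA subunits were higher at each age. Of these, the alpha subunit Gabra4 and the AMPA subunit Gria1 lay under the 40th percentile on every WT array. Beside this, the 10 markers of medullary epithelium summed to 36744 to 39155 in adult GFP- and 44758 to 47242 in adult GFP+ cells, 28521 to 30755 and 43533 to 46549 in perinates, and the 10 neuron markers to 2320 to 2541 in adult GFP- and 2035 to 2080 in perinate GFP- cells. Of the 7 neuron markers tested, 3 were higher and 2 lower in adult GFP+ than GFP- cells. In perinates 4 were higher and 0 lower in GFP+ cells. The part of medullary and neuron transcripts in these receptor differences was not tested.

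Gabra5 read 56.2, 63.9 and 46.6 in adult GFP- and 235, 286 and 219 in adult GFP+ cells, 4.44-fold higher with log2 difference 2.15 ± 0.12, adjusted p = 2.38e-09, and was 4.11-fold higher in perinates (log2 difference 2.04 ± 0.13, adjusted p = 4.57e-09). Gria3, an AMPA receptor subunit, read 265, 449 and 364 in GFP- and 1136, 1499 and 1017 in GFP+ in adults (log2 difference 1.77 ± 0.19, adjusted p = 1.8e-06). Its perinate values were 484 and 569.6 in GFP- and 1249, 1045 and 1714 in GFP+ (log2 difference 1.32 ± 0.22, adjusted p = 9.97e-05). All GFP+ arrays of these genes lay above all GFP- arrays of the same age. The other AMPA subunit tested, Gria1, was higher in GFP+ cells, with 42.6 to 47.5 in GFP- and 65.8 to 82.0 in GFP+ cells of adults (log2 difference 0.73 ± 0.14, adjusted p = 0.000555) and 41.7 to 45.3 in GFP- and 74.1 to 78.7 in GFP+ in perinates (log2 difference 0.80 ± 0.16, adjusted p = 0.00064). All of these Gria1 values lay under the 40th percentile, as did all those of Gabra4 in WT cells. Both genes were tested only because KO arrays exceeded it.

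The NMDA subunit Grin2c, which in brain is prominent in the cerebellum, read 196, 200.3 and 161 in adult GFP- and 458, 540 and 447 in adult GFP+ cells (log2 difference 1.38 ± 0.16, adjusted p = 3.13e-06). In perinates it read 87.8 and 115 in GFP- and 391, 323 and 363 in GFP+ (log2 difference 1.83 ± 0.18, adjusted p = 3.41e-07). Grin2d was higher by 0.59 ± 0.17 in adults and 0.62 ± 0.19 in perinates. Both tested NMDA subunits were thus higher in GFP+ cells at each age, with no overlap of arrays. Htr7 read 276, 290 and 288 in adult GFP- and 559, 641 and 602 in adult GFP+ cells (log2 difference 1.08 ± 0.12, adjusted p = 2.46e-06), and in perinates 227 and 217 in GFP- and 828, 778 and 576 in GFP+ cells (log2 difference 1.70 ± 0.14, adjusted p = 3.98e-08). The adult GFP- arrays of Htr7 lay close together, all below the GFP+ arrays. Differences in the same direction were also called at both ages for Gabrg3 (1.39 ± 0.13 and 0.86 ± 0.15), Gabrr1 (0.92 ± 0.15 and 1.22 ± 0.17), Gabra4 (0.88 ± 0.14 and 1.17 ± 0.16), Grik3 (0.85 ± 0.14 and 0.99 ± 0.16), Grm4 (0.67 ± 0.12 and 1.13 ± 0.13) and Htr4 (0.38 ± 0.10 and 0.54 ± 0.12).

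Gabre, the epsilon subunit of GABA-A receptors, read 126, 151 and 164 in adult GFP- and 68.2, 70.5 and 59.9 in adult GFP+ cells (log2 difference -1.14 ± 0.12, adjusted p = 1.83e-06). In perinates it read 138 and 149 in GFP- and 79.5, 68.4 and 81.7 in GFP+ (log2 difference -0.91 ± 0.14, adjusted p = 4.99e-05), again without overlap. Its KO arrays, at 57.8 to 83.7, covered much of the range of the WT GFP+ arrays. Grik5, a kainate subunit that needs partners to form channels, was lower in perinate GFP+ cells by a smaller amount (log2 difference -0.33 ± 0.12, adjusted p = 0.0359); the adult value was -0.06 ± 0.11, adjusted p = 0.703.

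The GFP difference itself changed with age for 3 members, where 20% of all tested genes were called; without the filter 6 of 57 were called, where 14.5% were, the other 3 being the dim Gabrb1 (0.49), Htr1d (0.77) and Grm8 (-0.84). Glrb, the glycine receptor subunit that binds the anchor gephyrin, read 509.9 and 359 in perinate GFP- cells and 45.0, 54.8 and 38.8 in perinate GFP+ cells (log2 difference -3.23 ± 0.18, adjusted p = 1.25e-09). With the dim group raised to its arrays' 40th percentiles this is at least 3.86-fold; Glrb was tested only because of the 2 bright arrays. In adults it read 37.1, 36.0 and 34.6 in GFP- and 30.6, 31.0 and 28.5 in GFP+ cells (log2 difference -0.26 ± 0.16, adjusted p = 0.216), and the difference between the ages was -2.97 ± 0.25, adjusted p = 8.49e-07. Only the 2 perinate GFP- arrays exceeded the 40th percentile. Of the 6 markers of cortical thymic epithelium, 3 were called higher on those arrays than in perinate GFP+ cells (Psmb11, Prss16 and Ly75) and 2 lower (Ccl25 and Enpep). Psmb11, a proteasome subunit of cortical cells, read 383 and 313 where all other arrays lay at 88.9 to 129.7, and Prss16, a cortical protease, 3099 and 3286 against 301 to 1149 there. The summed level of the 6 cortical markers lay within the range of the other groups, at 7937 to 8090 in perinate GFP-, 7959 to 8285 in perinate GFP+, 5539 to 6054 in adult GFP-, 9346 to 10854 in adult GFP+, 9463 to 10348 in adult KO and 5977 to 9341 in perinate KO cells, with 6 of 6, 5 of 6, 4 of 6, 5 of 6, 4 of 6 and 5 of 6 above the 40th percentile in that order. The part of cortical cells in the Glrb difference was not tested.

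Gabrp was lower in GFP+ than in GFP- cells of adults: it read 3357, 2932 and 3414 in GFP- and 869, 976 and 988 in GFP+, 3.42-fold lower with log2 difference -1.77 ± 0.28, adjusted p = 7.04e-05. In perinates it read 695 and 372 in GFP- and 414, 801 and 676 in GFP+, overlapping groups (log2 difference 0.26 ± 0.31, adjusted p = 0.534), and the difference between the ages was 2.03 ± 0.42, adjusted p = 0.00239. The adult GFP- arrays were the highest for Gabrp in the series. Beside it, 6 tuft cell markers summed to 5020 to 7521 in adult GFP- and 854 to 1040 in adult GFP+ cells, 638 to 1072 in adult KO, 1565 to 2833 in perinate GFP-, 760 to 925 in perinate GFP+ and 659 to 711 in perinate KO cells. On all arrays of the group, 6 of 6 exceeded the percentile in adult GFP-, 3 of 6 in adult GFP+, 3 of 6 in adult KO, 6 of 6 in perinate GFP-, 4 of 6 in perinate GFP+ and 2 of 6 in perinate KO cells. The part of tuft cells in the Gabrp differences was not tested. Htr7 was the third member, at 0.62 ± 0.18, adjusted p = 0.023; the call was lost without perinate GFP- array 2 (0.58, adjusted p = 0.0727), adult GFP+ array 6 (0.57, adjusted p = 0.0559) or perinate GFP+ array 5 (0.52, adjusted p = 0.0582). With the replicate block for the adult samples treated as pairs, 5 members were called, Gabrg3 and Htr3a joining the 3.

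**Figure D5:**
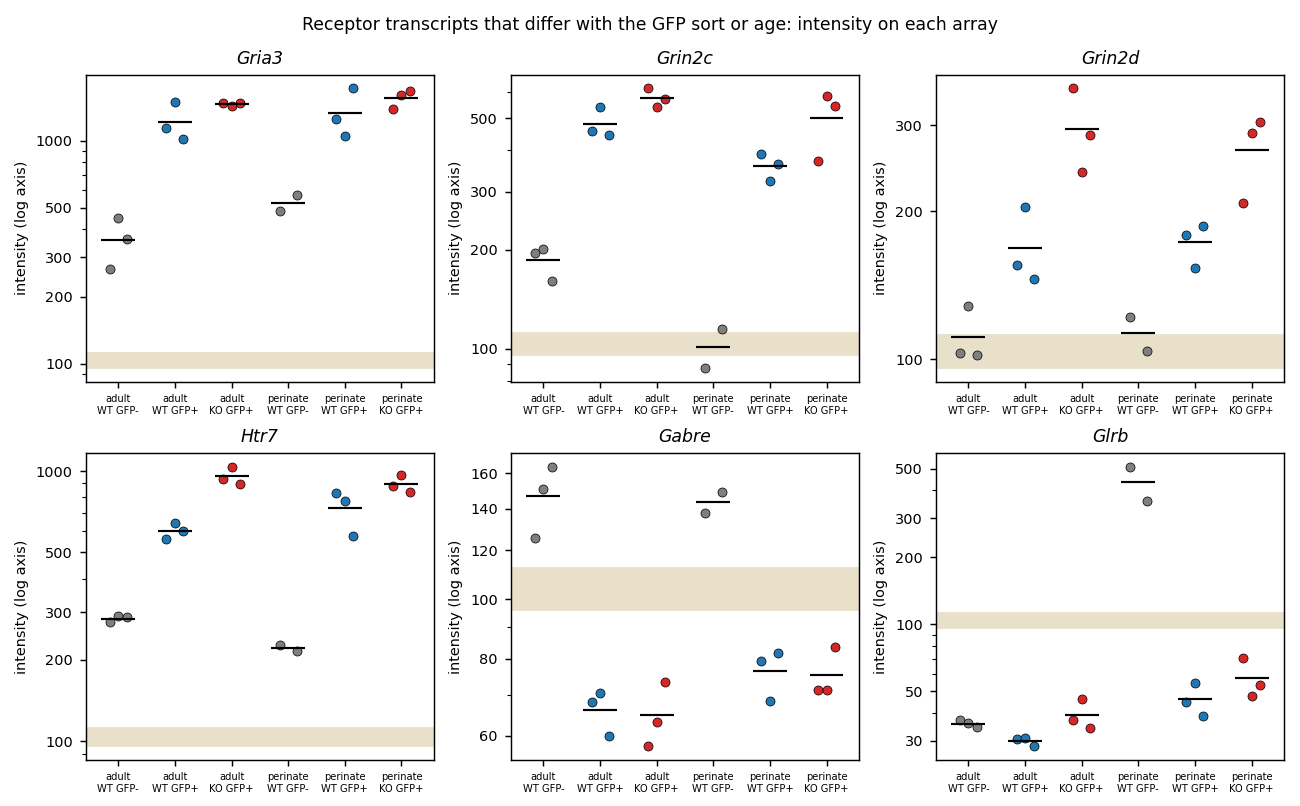
Intensity on each array (log axis) of 6 members with differences by GFP sort or age; points are arrays, bars are group means, and the shaded band is the range of the arrays' 40th percentiles. Gria3, Grin2c and Htr7 lie lower in both GFP- groups than in the GFP+ groups, Gabre lies higher in both GFP- groups, and Glrb is high on the 2 perinate GFP- arrays alone.

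Of the 39 tested transmitter genes, 18 were higher and 6 lower in adult GFP+ than GFP- cells (24.7% and 20.1% of all tested genes). In perinates 18 were higher and 9 lower (23% and 20.5%). These counts carry the selection described above for this list. The serotonin genes had the largest median, 1.47 in adults and 1.45 in perinates, with 5 of 6 higher in adults and 4 of 6 in perinates. Tph1, the enzyme that starts serotonin synthesis outside the brain, read 181, 116 and 97.3 in adult GFP- and 639.8, 763 and 588 in adult GFP+ cells (5.19-fold, adjusted p = 1.02e-06). It was 7.30-fold higher in perinate GFP+ cells. Slc18a1, which loads monoamines into vesicles, was 3.11-fold higher in adults and 7.87-fold in perinates, and the perinate difference was the larger by 1.34 ± 0.28, adjusted p = 0.00263. Nlgn2, an adhesion protein of inhibitory synapses, was lower in GFP+ cells at both ages (-0.70 and -1.94), as was the GABA-B receptor gene Gabbr1 (-0.65 and -1.58). Between the ages, 2 of the 39 were higher and 10 lower in perinates in WT GFP+ cells (8.52% and 13.6% of all tested genes), 10 and 13 in WT GFP- cells (22.2% and 24.2%) and 3 and 10 in KO cells (13.4% and 12.7%). Slc6a4 had log2 difference -2.03 ± 0.18, adjusted p = 3.04e-06 in WT GFP+ cells.

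Perinates were compared with adults in each of the 3 sorts. The serotonin receptor gene Htr1b was lower in perinates in every sort, and in GFP- cells Glrb was higher and Gabrp lower. In WT GFP+ cells 5 of 22 tested members were higher and 3 lower in perinates, where 22.2% of all tested genes were called, and 8 higher and 4 lower of 57 without the filter (17.5%). In WT GFP- cells 3 were higher and 7 lower, where 46.4% were called, and 5 and 7 without the filter (35.4%). In KO GFP+ cells 3 were higher and 5 lower, where 26% were called, and 4 and 4 without the filter (18.4%). As shares, 36.4% of the tested members were called in WT GFP+, 45.5% in WT GFP- and 36.4% in KO GFP+ cells.

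Htr1b was lower in perinates in all 3: it read 685, 536 and 645 in adult and 314 and 214 in perinate GFP- cells (log2 difference -1.25 ± 0.18, adjusted p = 2.55e-05). In WT GFP+ cells the values were 477, 415 and 557 in adults and 175, 231 and 196 in perinates, 2.41-fold lower with log2 difference -1.27 ± 0.16, adjusted p = 6.18e-05. In KO cells it was -0.55 ± 0.16, adjusted p = 0.0187, and was not called without adult KO array 1 (-0.46, adjusted p = 0.0749) or perinate KO array 1 (-0.45, adjusted p = 0.0882). Gabrg3 was lower in perinates in WT GFP+ (log2 difference -0.67 ± 0.13, adjusted p = 0.00171) and KO cells (log2 difference -0.76 ± 0.13, adjusted p = 0.000558), and Gabra5 in WT GFP+ cells (log2 difference -0.58 ± 0.12, adjusted p = 0.00257). Glrb was higher in perinate than adult GFP- cells, at least 3.95-fold with the adult arrays, all dim, raised to their 40th percentiles (log2 difference 3.58 ± 0.18, adjusted p = 4.7e-10), and Gabrp was 6.35-fold lower (log2 difference -2.67 ± 0.31, adjusted p = 2.82e-06), on the arrays described above. In the GFP- cells Grin2c was lower in perinates (log2 difference -0.88 ± 0.18, adjusted p = 0.00065) and Grik5 higher (log2 difference 0.46 ± 0.12, adjusted p = 0.00477). In KO cells Gabrd (log2 difference -0.61 ± 0.11, adjusted p = 0.000578) and Grik4 (log2 difference -0.48 ± 0.12, adjusted p = 0.00817) were lower and Htr4 higher (log2 difference 0.49 ± 0.10, adjusted p = 0.00268). Htr4 in KO cells was not called without perinate KO arrays 2 and 3 (0.45, adjusted p = 0.0664). Gabra4 was higher in perinate WT GFP+ cells (log2 difference 0.58 ± 0.14, adjusted p = 0.00751).

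Other age calls depended on single arrays. In WT GFP- cells the count fell from 10 to 6 without adult GFP- array 6, perinate GFP- array 1 or perinate GFP- array 2; Gabra5 (-0.46 ± 0.13) was lost without perinate GFP- array 1 (-0.41, adjusted p = 0.0692), and Gria3 (0.58 ± 0.22), Gabrd (-0.32 ± 0.12), Grm4 (-0.34 ± 0.13) and Htr7 (-0.36 ± 0.14) were each lost without either perinate array (adjusted p of 0.0566, 0.0836, 0.065 and 0.0846 without array 1). In WT GFP+ cells the count fell from 8 to 5 without adult array 6. Grm2 (0.29 ± 0.10) was lost without any 1 of the 6 arrays, Htr3a (0.62 ± 0.17) without adult array 6 or 7 or perinate array 5 or 7, Grik3 (0.53 ± 0.14) without adult array 6 or perinate array 5, and Glrb (0.61 ± 0.16) without adult array 8 or perinate array 6. The adjusted p of these 4 then lay between 0.0502 and 0.148. In KO cells the count fell from 8 to 4 without adult KO array 1. There Gabrp (-0.79 ± 0.28, overlapping groups), Grik3 (0.45 ± 0.14) and Glrb (0.53 ± 0.16) were lost without 1 or more single arrays, and without both perinate KO arrays 2 and 3 Gabrp read -0.24, adjusted p = 0.72, Grik3 0.19, adjusted p = 0.571 and Glrb 0.86, adjusted p = 0.0164.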

How the data were processed

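RNA of the 17 sorted samples was amplified, labelled and hybridised to whole-transcript mouse gene arrays of Affymetrix, per the labels' protocols. The deposited table holds linear intensity values per probe set, made with Affymetrix Power Tools and RMA per the submitters' processing notes, with the versions not given in the sources used here; RMA corrects background, makes array distributions alike and combines probes, which compresses differences of dim genes. Of 24922 probe sets, 21425 had 1 gene symbol in the platform annotation, 1399 several and 2098 none, and only the first were used. For each gene the probe set with the highest mean was kept (19752 genes); all 57 members had the same symbol in RefSeq.

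In R 4.3.3, limma 3.58.1 was fitted to log2 intensities with no pseudocount, as 1 model of 6 group means over all 17 arrays with 9 contrasts. Adjusted p-values are Benjamini-Hochberg values over the 13842 genes above their array's 40th percentile on at least 2 arrays, two-sided, and a gene was called at an adjusted p under 0.05. The limma fit had 11 residual degrees of freedom. Values quoted without the filter come from the same fit over 19752 genes. Precision is set by how many arrays a group has; the median standard error of a KO log2 difference was 0.13. The method was tested on simulated data.

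Groups came from the sample labels. No 2 arrays held identical values. In the adult WT sorts, same-numbered GFP- and GFP+ arrays deviated together from their group means (r of 0.503, 0.443 and 0.188). Different numbers gave r of -0.439 to 0.0971. The same numbers were therefore treated as pairs in the replicate block. With so few arrays this evidence is weak, and the labels do not state a pairing. The p-values quoted for GFP in adults come from the fit without the block. Members named with values were the 10 called members with the largest differences in each comparison, the 10 brightest, and their neighbours on the chromosome; Grik3 and Grin2c in the perinate KO comparison and the dim members called without the filter were added after their values were seen. The members and lists were chosen with earlier results of these data known. Alternatives were no filter, a filter at the 60th percentile, a pseudocount of 50, quantile normalization, arrays centred on their median, array weights, the mean of a gene's probe sets, only the groups compared, a replicate block and leaving out arrays.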

Additional observations from a re-analysis of the deposited data

Results flagged for a closer look

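For 3 receptor genes the difference between GFP+ and GFP- cells of WT mice itself differed between the ages, by limma's test of the perinate minus adult difference in 5 GFP+ and GFP- arrays of perinates and 6 of adults. Gabrp, the pi subunit of GABA-A receptors, had a difference of 2.03 ± 0.42 on the log2 scale (adjusted p = 0.00239), being lower in GFP+ cells of adults and with overlapping groups in perinates. Glrb, the anchoring subunit of glycine receptors, had -2.97 ± 0.25 (adjusted p = 8.49e-07), with its signal on the 2 perinate GFP- arrays. The serotonin receptor gene Htr7 had 0.62 ± 0.18 (adjusted p = 0.0230), being higher in GFP+ cells at both ages and by more in perinates. Over the alternatives run, the difference of Gabrp lay between 1.58 and 2.48 and that of Glrb between -3.22 and -2.22, with both called throughout. That of Htr7 lay between 0.52 and 0.78, and its call was lost under 4 of 20 alternatives: without perinate GFP- array 2, adult GFP+ array 6 or perinate GFP+ array 5, and with only the groups compared in the fit (0.62, adjusted p = 0.0522).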

How the results depend on the processing

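Of 979 values of the named members under the alternatives, 898 kept their direction and their side of the threshold, 81 kept the direction but lost the call and 0 reversed; 24 of the lost calls arose with all arrays kept. Of 76 counts of called members recomputed with all arrays kept, 62 stayed within 1.5 times. Without the filter the perinate KO comparison called 21 members and the between-age GFP comparison 6, since more members are tested. With the filter at the 60th percentile fewer members are tested. The counts were 6 for KO in adults (18.8% of all tested genes called) and 4 for KO in perinates (21.4%). For GFP they were 7 in adults (49.6%) and 8 in perinates (47.5%). For age they were 4 in WT GFP+ cells (23.9%) and 5 in KO cells (30.9%). Quantile normalization called 5 members in the between-age GFP comparison, where 22.5% of all tested genes were called. Array weights called 4 in the between-age KO comparison (5.84% of all tested genes) and 6 for age in WT GFP- cells (39.9%). For the latter a pseudocount of 50 also gave 6 (46.2%) and a fit of only the groups compared gave 5 (36.4%). The cause was not tested.

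With the replicate block in the model of all arrays, 14 members were called for GFP in adults, as without it (45.1% of all tested genes called). For the between-age GFP comparison 5 were called in place of 3 (20.4%). Between adults and perinates the shared numbers were not taken as pairs (r of 0.0486, 0.039 and 0.0589 in KO and 0.033 and 0.189 in WT GFP+ cells). A block was tried there in fits of only the groups compared. For age in WT GFP+ cells it gave 7 members (19.2% of all tested genes called), against 8 (18.7%) in that fit without it. There each array without a shared number had a term of its own and no longer counted. These counts therefore do not rest on the same arrays and do not show the effect of pairing alone. In KO cells it gave 9 (27.0%), against 10 (29.2%) without it.

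Leaving out 1 array at a time gave 9 to 11 called members for KO in adults, 10 to 12 for KO in perinates, 0 to 1 for the KO effect between ages, 13 to 15 for GFP in adults, 17 to 19 for GFP in perinates, 2 to 4 for the GFP effect between ages, and 5 to 7, 6 to 9 and 4 to 6 for age in WT GFP+, WT GFP- and KO cells. Without perinate KO arrays 2 and 3 a lone array is left in that group, so no count of called members is given. Members under the 40th percentiles are measured close to background, which limits them.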
